A study of Aspergillus oryzae with 8 samples.

Results

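The genes described here are atg1 (AO090023000647), which encodes the protein kinase that starts autophagy, and ams1 (AO090005001458), which encodes an alpha-mannosidase of the vacuole. These 2 of the 11880 genes listed in the deposited files were picked by locus tag, and both had enough reads to be tested. They were picked with their values under DTT in these same libraries already known, so every level and fold change of atg1 and ams1 below is a description and carries no p-value.

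The study followed the response of Aspergillus oryzae, a mould of food fermentation, to stress of the endoplasmic reticulum (ER). All 8 libraries came from strain RIB40, fed with modified CD medium (2.0% glucose, nitrate, pH 5.5). The solid control was a mycelium of 40 h on an agar plate with a cellophane cover, and the liquid control one of 40 h in 30 mL of medium, shaken at 200 rpm. Both controls were grown at 30 °C. Stress came from dithiothreitol (DTT), which reduces the disulfide bonds of proteins, at 20 mmol/L. For solid DTT, cellophane and mycelium were laid on filter paper wetted with 20 mL of DTT medium, and for liquid DTT the compound went into the flask. The labels give neither the length of the DTT treatment nor a mock transfer for the solid controls, so on agar DTT and the transfer cannot be told apart. Growth time and temperature are not given for the DTT libraries, so a difference in either cannot be told apart from DTT. Each condition had 2 libraries, replicate 1 with inserts of 500 bp and replicate 2 with inserts of 200 bp. Nothing in the labels says that they came from separate cultures, so the spread between them may be technical.

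In autophagy a double membrane encloses cytoplasm and delivers it to the vacuole, the digestive compartment of a fungal cell. In budding yeast the kinase Atg1 acts at the first step, within a complex that the nutrient kinase TOR holds inactive in rich medium. Yeast Ams1 is itself a cargo of this machinery: it is made in the cytosol, bound by a receptor, linked by the scaffold Atg11 to the forming membrane, and carried into the vacuole, where it cleaves mannose from free oligosaccharides. In A. oryzae the atg1 gene is known to be needed for autophagy.

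The libraries held 5880753 to 8912897 reads on genes, of which 8.21% to 37.6% fell on 3 rRNA genes. Levels are given in CPM (a gene's share of the reads of its library, brought to a common library size with TMM scaling), and 3 reads corresponded to 0.27 to 0.678 CPM. CPM are shares of a library, and in these bulk samples fewer cells that express a gene and less RNA per cell cannot be told apart. The ER chaperone gene bipA (AO090003000257), a standard marker of ER stress, stood at 728 and 801 CPM in solid control and at 8450 and 9310 CPM in solid DTT. In liquid culture bipA stood at 312 and 483 CPM without DTT and at 5630 and 8550 CPM with it.

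Transcripts of atg1 were lowest in solid control and highest in liquid DTT. In solid control atg1 stood at 32.8 CPM in replicate 1 and 25.5 CPM in replicate 2, from 191 and 242 reads. In liquid control it stood at 93.5 and 133 CPM, from 524 and 1212 reads. In solid DTT it stood at 167 and 220 CPM, from 1021 and 2444 reads, and in liquid DTT at 513 and 549 CPM, from 2272 and 5196 reads. The order was therefore solid control, liquid control, solid DTT, liquid DTT, and no condition overlapped with its neighbour in that order. Of all 9438 tested genes, 9.65% separated the 4 conditions without overlap in some order and 1.79% in the order of atg1. In solid control atg1 was more abundant in CPM than 62.5% and 55.1% of tested genes, and in liquid DTT than 96.1% and 97.7% of them.

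Transcripts of ams1 ran in another order, with liquid DTT at the bottom. In solid control ams1 stood at 41.8 and 35.8 CPM, from 243 and 340 reads, and in liquid control at 34.6 and 31.3 CPM, from 194 and 286 reads. In solid DTT it stood at 15.8 and 30.1 CPM, from 97 and 335 reads. In liquid DTT it stood at 1.36 and 6.55 CPM, from 6 and 62 reads. No neighbours in this order overlapped, which held for 2.7% of tested genes, but solid DTT replicate 2 lay just under liquid control replicate 2. The spread within a condition was wide under DTT: the level in replicate 2 was 4.83 times that in replicate 1 in liquid DTT and 1.9 times in solid DTT, against 0.857 and 0.906 in the solid and liquid controls. On the log2 scale the gap between the liquid DTT libraries was 2.07 for ams1, larger than for 91.1% of tested genes in those libraries, and 0.0969 for atg1.

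**Figure D1:**
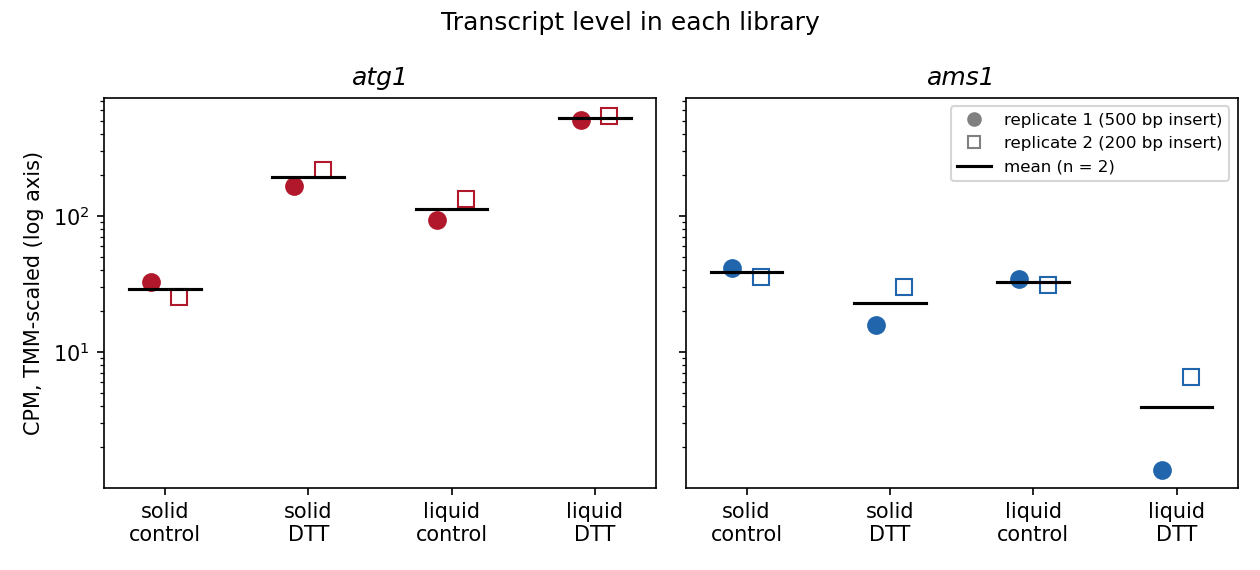
Transcript level of atg1 (left) and ams1 (right) in each of the 8 libraries, in TMM-scaled CPM on a log axis. Filled circles are replicate 1 (500 bp insert), open squares replicate 2 (200 bp insert) and bars the mean of the 2. For atg1 the liquid DTT libraries stand highest, at 513 and 549 CPM, and for ams1 lowest, at 1.36 and 6.55 CPM.

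Levels per kb of coding sequence allow the 2 genes to be set side by side. In solid control they were close, at 10.4 ± 1.85 CPM per kb for atg1 and 11.9 ± 1.29 for ams1 (SD, n = 2), and the ratio of atg1 to ams1 was 0.828 to 0.915 in the single libraries. The ratio of levels per kb was 3.14 to 4.93 in liquid control and 8.49 to 12.2 in solid DTT. In liquid DTT it was 97.5 to 441, with 189 ± 8.99 CPM per kb for atg1 and 1.21 ± 1.13 for ams1 (SD, n = 2). The denominators in liquid DTT were the 6 and 62 reads of ams1.

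The first comparison was DTT against control on agar. Here atg1 rose by 2.73 ± 0.47 on the log2 scale (fitted value ± SE), a 6.63-fold difference, from 29.2 ± 5.19 to 193 ± 37.5 CPM (SD, n = 2). The solid DTT libraries lay above the solid controls, by 2.33 to 3.09 in log2 CPM over the 4 possible pairs, as did those of 29.7% of tested genes. Its edgeR call (Benjamini-Hochberg adjusted p under 0.05) is one of those made upward for 4.86% of tested genes. Nothing is read from it, because the gene was picked with its DTT values known. The value of ams1 was -0.75 ± 0.62 and not called, with means of 38.8 ± 4.21 and 23.0 ± 10.1 CPM (SD, n = 2) and a 95% interval of -2.48 to 0.98 on the log2 scale. On agar 4.44% of tested genes were called down, and the DTT libraries lay below the controls without overlap for 31.8% of genes, ams1 among them. The size for ams1 differed between the inserts, at -1.39 within replicate 1 and -0.25 within replicate 2 in log2 CPM. The call of atg1 was lost when any 1 of the 4 solid culture libraries was left out, at log2 fold changes of 2.91 and 2.57 without solid control replicates 1 and 2 and of 2.90 and 2.59 without solid DTT replicates 1 and 2.

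The second comparison was DTT against control in liquid culture, where the 2 genes moved in opposite directions. The kinase gene atg1 rose by 2.23 ± 0.46 on the log2 scale, a 4.69-fold difference, from 113 ± 27.8 to 531 ± 25.2 CPM (SD, n = 2), and the 4 pairs of libraries differed by 1.95 to 2.55 in log2 CPM. Liquid DTT lay above liquid control without overlap for 28.2% of tested genes and below it for 31.5%. The mannosidase gene ams1 fell, with a log2 fold change of -3.0 ± 0.68 and means of 33.0 ± 2.31 and 3.95 ± 3.67 CPM (SD, n = 2). All 4 pairs were lower, by values between -4.43 and -2.21 in log2 CPM. In this comparison 8.91% of tested genes were called up and 11.1% down, and again nothing is read from the calls of the 2 genes. Without liquid DTT replicate 2 the fold change of ams1 was -4.54, and without liquid DTT replicate 1 it was -2.33. Both calls were lost without liquid control replicate 1 (1.98 for atg1, -2.94 for ams1) and without liquid control replicate 2 (2.52 and -3.06).

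Of the 9438 tested genes, 273 were called up by DTT in both cultures, atg1 among them. They made up 59.5% of those called up on agar and 32.5% of those called up in liquid. Nothing is read from the place of atg1 among them, since it was picked with its DTT values known. The DTT effects themselves, solid minus liquid, differed by 0.50 ± 0.63 on the log2 scale for atg1, with a 95% interval of -1.24 to 2.24. For ams1 the difference of effects was 2.24 ± 0.90, with an interval of -0.25 to 4.74, since the fitted fall was the larger in liquid. Of the 9438 genes, 0% were called for this difference by edgeR's quasi-likelihood test, while 1003 had an unadjusted p under 0.05. DESeq2 called 211 genes (2.24%), and 0.244% were called with insert size as a block. Neither atg1 nor ams1 was called for it under these settings, which does not show that the 2 cultures responded alike.

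Between the cultures without DTT, atg1 was the lower on agar. Its log2 fold change, solid minus liquid, was -1.96 ± 0.46, and each of the 4 pairs of libraries lay between -2.37 and -1.50 in log2 CPM. The solid controls lay below the liquid controls without overlap for 23.5% of tested genes. The gene atg1 was not called by edgeR, which called 1.66% of genes lower on agar. It was called by DESeq2, without the rRNA genes, and with insert size as a block (-1.93 ± 0.38, 4.09% of genes called lower). DESeq2 called 437 of 9438 genes lower, and the fit without the rRNA genes 159 of 9426. For ams1 the value was 0.23 ± 0.62, with a 95% interval of -1.49 to 1.95, and the levels in the 4 control libraries lay between 31.3 and 41.8 CPM. Those on agar were the higher, without overlap, as for 26.7% of genes, while edgeR called 2.23% of genes higher on agar and not ams1.

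Under DTT the 2 genes again differed in sign between cultures. The log2 fold change of atg1, solid minus liquid, was -1.46 ± 0.45, and that of ams1 was 2.48 ± 0.67. In neither gene did the DTT libraries of the 2 cultures overlap, and such gaps were found for 23.0% of tested genes in the direction of atg1 and 28.8% in that of ams1. Neither was called by edgeR, which called 2.35% of genes higher and 0.593% lower on agar under DTT. With insert size as a block and by DESeq2 both were called, with the block atg1 at -1.47 ± 0.37 and ams1 at 2.52 ± 0.58, beside 6.87% of genes called higher and 3.64% lower. By DESeq2, 668 of 9438 genes were called higher on agar and 474 lower. With no filter on low counts edgeR called ams1, among 416 of 11650 genes called higher. For ams1 the value moved most with the liquid DTT libraries, to 1.81 without their replicate 1 and 4.04 without their replicate 2, and it was called in the latter case. These contrasts share libraries with the DTT contrasts above, so they are other views of the same 8 values.

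**Figure D2:**
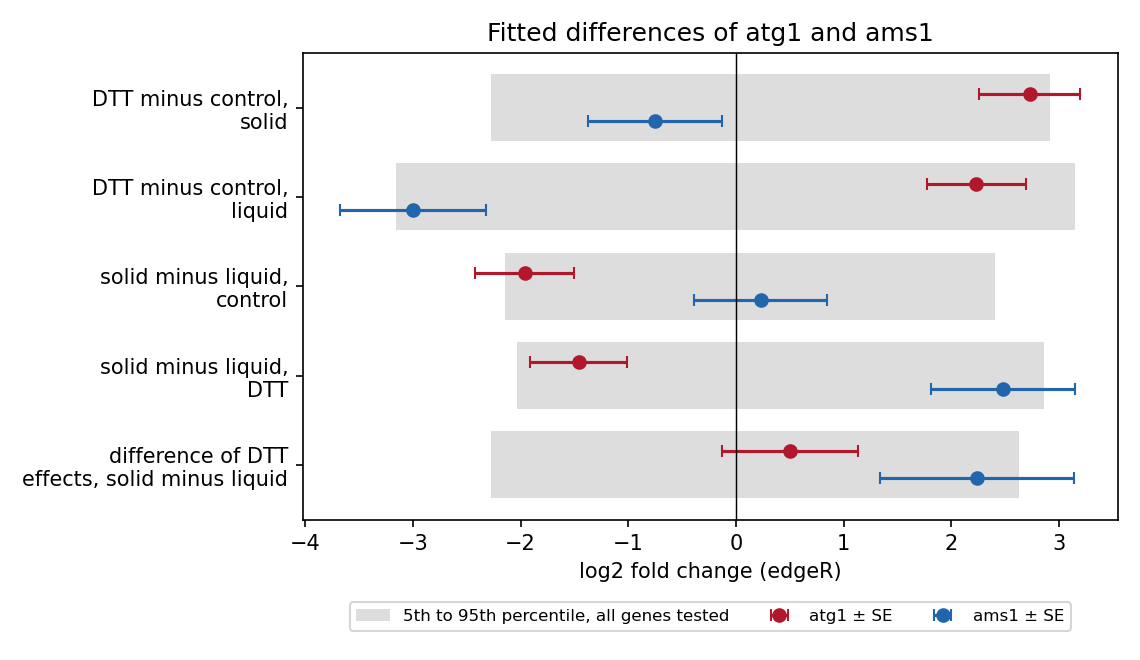
Fitted log2 fold changes of atg1 (red) and ams1 (blue) in the 5 contrasts, with bars of 1 SE. Grey bands span the 5th to 95th percentile of all 9438 tested genes. The points of atg1 lie at 2.73 and 2.23 in the DTT contrasts and those of ams1 at -0.75 and -3.0.

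The files also give the share of each gene's bases covered by reads, which shows how the reads spread along these genes. Reads covered 83.1% to 100% of the 2805 coding bases of atg1 in every library, and at least 98.7% in the 4 DTT libraries. Of the 3264 coding bases of ams1, 76.8% and 92.5% were covered in the solid controls, 71.7% and 93.7% in the liquid controls, 59.6% and 94.4% in solid DTT, and 7.72% and 41.0% in liquid DTT. In liquid DTT replicate 1 the 6 reads of ams1 covered 252 bases, and the median coverage of tested genes with a like number of reads per kb (80 to 125% of that of ams1) was 7.91%. In liquid DTT replicate 2 the 62 reads covered 1339 bases. The median among 454 genes with a like number of reads per kb was 60.2%, and 4.19% of them were covered less than ams1. In the other 6 libraries ams1 was covered more than 23.2% to 56.4% of such genes.

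**Figure D3:**
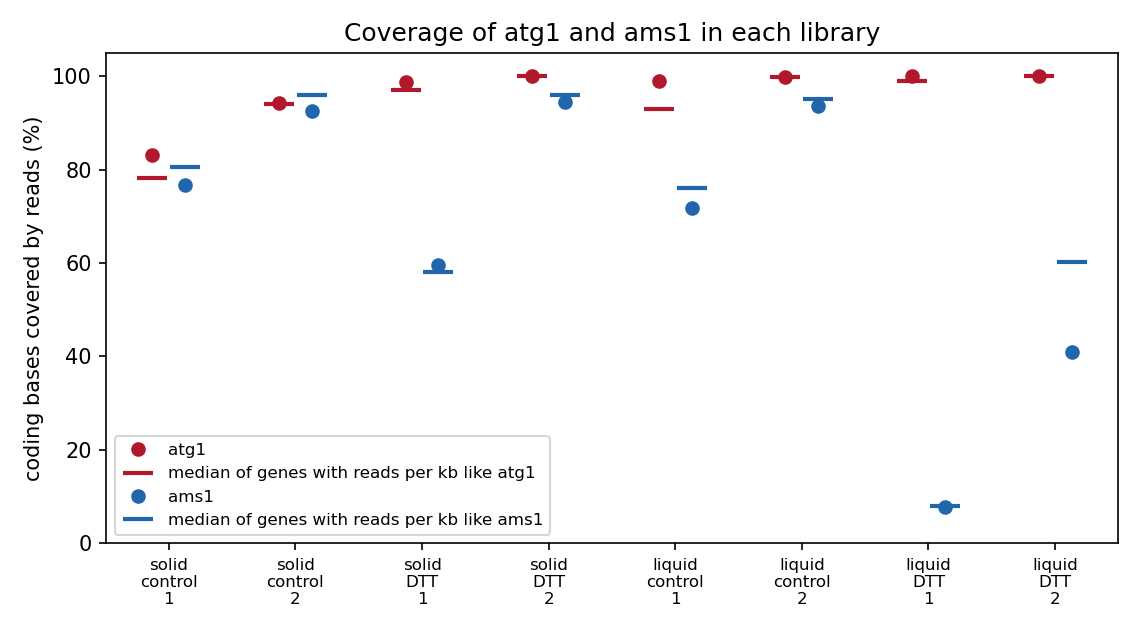
Share of coding bases covered by reads for atg1 (red points) and ams1 (blue points) in each library. Short bars give the median of tested genes with 80 to 125% of the same number of reads per kb. In liquid DTT replicate 2 ams1 was covered to 41.0%, against a median of 60.2%.

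The reference gives autophagy symbols to few other genes, and 3 could be tested: atg2 (AO090003000445), whose yeast product moves lipids into the growing membrane, atg11 (AO090003000718), the scaffold of selective autophagy in yeast, and atg26 (AO090011000498), a sterol glucosyltransferase needed to degrade peroxisomes in the yeast Pichia pastoris. All 3 had fitted values above 0 under DTT in both cultures and below 0 on agar against liquid, but 0 of 3 passed edgeR's test in any of the 5 contrasts. Without liquid DTT replicate 2, atg11 stood at 0.06 under DTT in liquid and at 0 between the DTT cultures. Without liquid control replicate 2, atg2 stood at -0.15 between the control cultures. Of all tested genes, 9.3% were called under DTT on agar, 20% under DTT in liquid, 3.89% between the control cultures and 2.95% between the DTT cultures. The median log2 fold change of the 3 genes under DTT was 0.72 on agar and 0.82 in liquid, beside medians of -0.05 and -0.03 over all tested genes.

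Of these genes atg2 stood nearest to atg1. Its levels were 29.8 and 28.0 CPM in solid control, 66.9 and 108 CPM in solid DTT, 30.9 and 99.9 CPM in liquid control, and 139 and 299 CPM in liquid DTT. In each culture the DTT libraries lay above the controls, as did those of 29.7% of tested genes on agar and 28.2% in liquid. The log2 fold change under DTT was 1.60 ± 0.63 on agar (edgeR quasi-likelihood, Benjamini-Hochberg adjusted p = 0.136, and 0.0487 with insert size as a block). In liquid it was 1.75 ± 0.63 (adjusted p = 0.0786, and 0.0186 with the block, edgeR). The block called 9.96% of all tested genes up on agar and 14.2% in liquid. DESeq2 also called atg2 in liquid, where its log2 fold change was 1.12 without liquid control replicate 1, 1.15 without liquid DTT replicate 2 and, called by edgeR, 2.84 without liquid control replicate 2. For atg11 the values under DTT were 0.69 ± 0.50 on agar and 0.78 ± 0.49 in liquid, and for atg26 0.72 ± 0.48 and 0.82 ± 0.48. Per kb of coding sequence, atg1 was the most abundant of the 4 atg transcripts in both DTT conditions (68.9 CPM per kb on agar and 189 in liquid). In solid control it was second to atg26 (10.4 against 18.7 CPM per kb), and in liquid control level with it (40.3 against 40.2).

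The vacuole list held 2 tested genes beside ams1. The gene vac8 (AO090113000014), whose yeast product sits on the vacuole membrane and takes part in the delivery of Ams1, stood at 63.6 and 52.4 CPM in solid control and 78.4 and 83.0 CPM in solid DTT. In liquid it stood at 92.8 and 110 CPM without DTT and 87.0 and 125 CPM with it, so the groups overlapped. Its log2 fold changes under DTT were 0.48 ± 0.39 on agar and 0.06 ± 0.39 in liquid. Those of vps27 (AO090003000273), which sorts membrane proteins to the vacuole in yeast, were 0.59 ± 0.57 and 0.54 ± 0.56. None of these 2 genes was called in any of the 5 contrasts by edgeR or with the block. Of all tested genes, edgeR called 0% to 20% without the block, depending on the contrast. With it, 14.2% were called up and 17.4% down under DTT in liquid.

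A further 6 vacuole genes were added once the symbols of the reference had been read, and 0 of 6 were called by edgeR in any contrast, where the shares of all tested genes called ran from 0% to 20%. Among them, rab7 (AO090120000329), a small GTPase of late endosomes and the vacuole, stood at 0.01 ± 0.36 on agar and 0.68 ± 0.37 in liquid under DTT. The values of ncr1 (AO090038000467), a sterol transporter of the vacuole membrane in yeast, were -0.48 ± 0.42 and -0.89 ± 0.43, and those of bro1 (AO090026000470), of endosomal sorting, 0.16 ± 0.47 and -0.75 ± 0.47. The values of mvp1 (AO090102000101), a sorting nexin, were -0.05 ± 0.40 and 0.22 ± 0.40. For vtc4 (AO090011000795), a polyphosphate polymerase of the vacuole in yeast, they were -0.86 ± 0.54 and -1.03 ± 0.54. For yvc1 (AO090012000784), a vacuolar calcium channel in yeast, they were -0.43 ± 0.65 on agar and -1.38 ± 0.66 in liquid, where it was called with insert size as a block (edgeR, Benjamini-Hochberg adjusted p = 0.0399, among 17.4% of genes called down). The liquid value of yvc1 was -2.80, and called, without liquid DTT replicate 2 and -0.68 without liquid DTT replicate 1. The median over these 6 genes was -0.24 on agar and -0.82 in liquid.

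The list set up for mannosidases held, beside ams1, cwh41 (AO090701000141), the ER glucosidase that removes the first glucose from new N-glycans, and manF (AO090038000444), whose symbol is that of a mannan hydrolase. In liquid culture cwh41 fell from 582 and 541 CPM to 110 and 119 CPM (log2 fold change -2.29 ± 0.46, edgeR quasi-likelihood, Benjamini-Hochberg adjusted p = 0.0132). The low-level manF fell from 10.3 and 6.91 CPM to 2.03 and 1.90 CPM (-2.12 ± 0.60, adjusted p = 0.039, edgeR). On agar the same genes stood at 0.03 ± 0.44 and 0.06 ± 0.62 under DTT, so that 2 of 2 were called down in liquid and 0 of 2 on agar, where 11.1% and 4.44% of all tested genes were. The differences of the DTT effects, 2.32 ± 0.63 and 2.18 ± 0.86, were not called by edgeR (adjusted p = 0.263 and 0.416), although DESeq2 called that of cwh41. Without DTT, cwh41 was lower on agar than in liquid (-2.32 ± 0.46, adjusted p = 0.0296, edgeR), and manF was called so with the block (edgeR adjusted p = 0.0395) and by DESeq2. The call of cwh41 in liquid was lost without liquid DTT replicate 1 (adjusted p = 0.0537), and that between the control cultures when any 1 library other than a liquid DTT one was left out (0.0536 to 0.252). The call of manF was lost when any 1 of the 8 libraries was left out (0.0594 to 0.188).

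The gene png1 (AO090005001528), whose yeast product is a peptide N-glycanase that releases in the cytosol free glycans that alpha-mannosidases of this class trim, was added later. It stood at -0.37 ± 0.43 under DTT on agar and -0.08 ± 0.43 in liquid, and was not called. Its 8 levels lay between 36.7 and 82.0 CPM.

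Among 6 genes of nutrient signalling, 2 fell under DTT in liquid and 0 of 6 were called on agar, beside 11.1% of all tested genes called down in liquid and 9.3% called in either direction on agar. The gene pkaC (AO090026000426), which encodes a catalytic subunit of protein kinase A, fell from 17.1 and 22.8 CPM to 3.84 and 4.12 CPM (-2.32 ± 0.49, adjusted p = 0.0153, edgeR quasi-likelihood with Benjamini-Hochberg adjustment). In yeast this kinase restrains autophagy. The gene cpcB (AO090009000264), whose product is a ribosome-bound scaffold of the RACK1 kind, fell from 919 and 615 CPM to 124 and 37.8 CPM (-3.24 ± 0.75, adjusted p = 0.0204, edgeR). On agar pkaC stood at -1.02 ± 0.46 and cpcB at -2.15 ± 0.71, the latter called by DESeq2 and with the block (edgeR adjusted p = 0.0465, among 10.1% of genes called down). Between the cultures under DTT, solid minus liquid, cpcB stood at 2.54 ± 0.72, not called without the block (edgeR adjusted p = 0.0869) but called with it (0.0445) and by DESeq2. The difference of effects between the cultures was 1.30 ± 0.65 for pkaC and 1.09 ± 0.97 for cpcB, and was called for neither. In liquid the call of pkaC was lost without liquid control replicate 2 or liquid DTT replicate 1 (adjusted p = 0.0636 and 0.0542, edgeR), and that of cpcB without liquid control replicate 1 or liquid DTT replicate 2 (0.0747 and 0.0572). The log2 fold change of cpcB was -4.34 without liquid DTT replicate 1 and -2.57 without liquid DTT replicate 2.

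The TOR kinase gene tor (AO090011000608) did not pass the test in any contrast. Its levels were 185 and 210 CPM in solid control, 221 and 364 CPM in solid DTT, 184 and 473 CPM in liquid control and 226 and 585 CPM in liquid DTT, and the liquid groups overlapped. Its log2 fold changes under DTT were 0.57 ± 0.65 on agar and 0.31 ± 0.65 in liquid. The gene cpcA (AO090009000459), which encodes the activator of amino acid synthesis genes related to yeast Gcn4, stood at 0.55 ± 0.58 and 1.12 ± 0.59, and cpcC (AO090701000211), a gene of the same cross-pathway control, at -0.72 ± 0.57 and -0.43 ± 0.57. The list also took in gcnE (AO090009000327), a histone acetyltransferase gene, at -0.29 ± 0.51 and -0.57 ± 0.51. Between 0% and 20% of all tested genes were called by edgeR without the block, depending on the contrast. Of 4 signalling genes added after the symbols had been read, 0 were. These were rhbA (AO090009000713), a Rheb GTPase (0.62 ± 0.38 on agar and 0.11 ± 0.38 in liquid), and the kinase gene schA (AO090001000439) (0.38 ± 0.43 and -0.48 ± 0.43). The others were iml1 (AO090001000648), whose yeast product lowers TOR activity (-0.58 ± 0.54 and -0.27 ± 0.54), and snf4 (AO090120000420), a subunit gene of the energy-sensing kinase Snf1 (-1.56 ± 0.43 and -1.17 ± 0.42). With the block snf4 was called lower in both cultures (edgeR adjusted p = 0.0195 and 0.0352), and DESeq2 called it on agar.

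**Figure D4:**
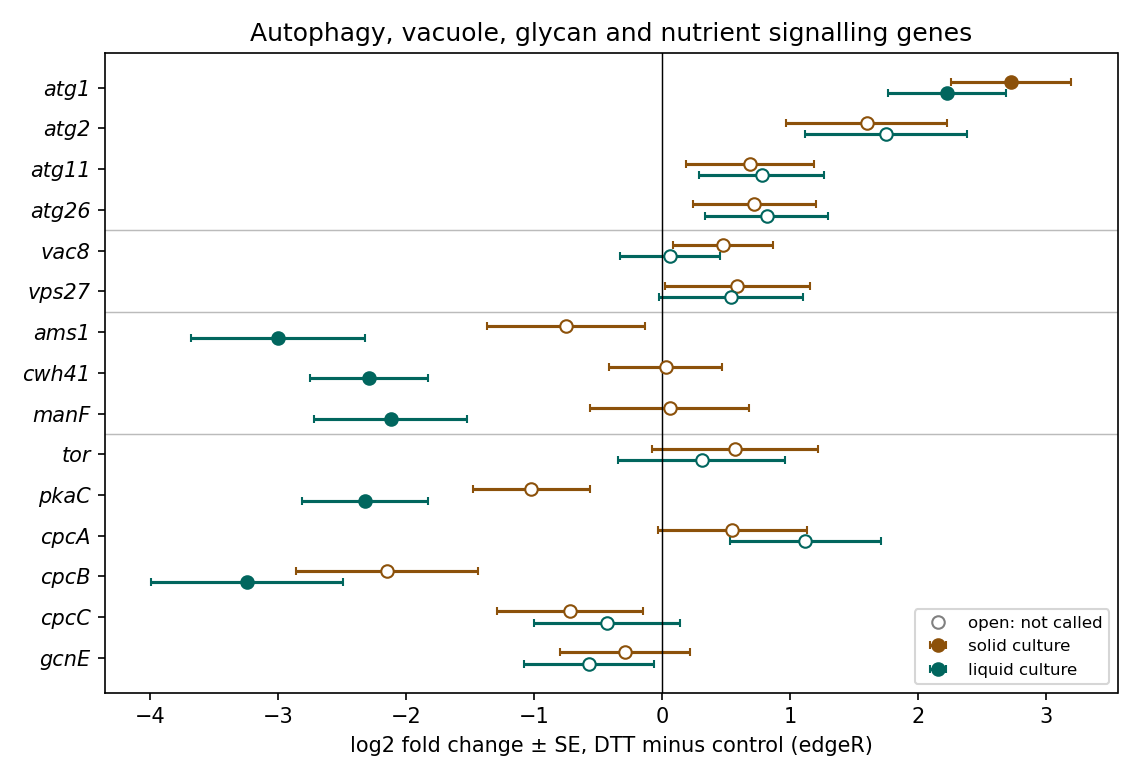
Log2 fold change under DTT (± SE) in solid (brown) and liquid culture (green) for atg1, ams1 and the 13 other genes of the autophagy, vacuole, mannosidase and nutrient signalling lists. Filled points were called by edgeR and open points were not. The 4 atg genes lie to the right of 0 in both cultures, and ams1, cwh41, manF, pkaC and cpcB lie at or below -2.12 in liquid.

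Genes whose pattern was most like that of atg1 were found by the Pearson correlation of log2 CPM over the 8 libraries, given here as a description, since the libraries form 4 pairs and share depth and insert size. Of 9437 other genes, 60 had a correlation above 0.95 with atg1. The 5 highest were AO090003000094 (0.996), AO090012000821 (0.995), AO090003000343 (0.987), AO090005001553 (0.987) and AO090003000468 (0.985), to which the reference gives no symbol. The first of them stood at 2.92 and 2.21 CPM in solid control, 7.49 and 9.21 in liquid control, 16.2 and 20.1 in solid DTT and 42.7 and 48.7 CPM in liquid DTT, the same order as atg1. Among genes with a symbol the highest were ugp1 (AO090038000558), which encodes the enzyme that makes UDP-glucose (0.983), fos-1 (AO090023000259), a sensor histidine kinase gene (0.962), and nde1 (AO090011000837), an NADH dehydrogenase gene of mitochondria (0.957). Levels of ugp1 were 313 and 415 CPM in solid control, 696 and 1020 in liquid control, 1040 and 1190 in solid DTT and 2330 and 2230 CPM in liquid DTT. Among the listed genes the correlation with atg1 was 0.914 for atg2, 0.877 for atg26 and 0.793 for atg11.

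For ams1, 49 genes had a correlation above 0.95. The 5 highest were AO090020000492 (0.990), AO090005001309 (0.990), AO090026000424 (0.987), AO090038000016 (0.986) and AO090023000783 (0.983), again without symbols. The first of them stood at 12.9 and 14.9 CPM in solid control, 13.9 and 12.9 in liquid control, 6.20 and 8.72 in solid DTT and 0.452 and 1.90 CPM in liquid DTT. Like ams1 it was lowest in liquid DTT and, there, lower in replicate 1. In liquid DTT replicate 1, where 3 reads corresponded to 0.678 CPM, AO090026000424 stood at 21.7 CPM and the others of the 5 at 0 to 0.452 CPM. Levels of AO090005001309 did not pass 1.38 CPM in any library. These correlations therefore rest in part on very few reads. The highest with a symbol were prs3 (AO090003000015), a gene of nucleotide precursor synthesis (0.952), erg5 (AO090003000954), a sterol desaturase gene (0.943), and sld5 (AO090003000104), a subunit gene of the replication complex GINS (0.939). Levels of erg5 were 0 and 0.634 CPM in liquid DTT, and 11.3 and 55.2 CPM in solid control. Of the listed genes pkaC came closest, at 0.905.

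The neighbours of the 2 genes in the order of the reference were examined for like behaviour. Next to atg1, AO090023000648 rose under DTT in liquid, from 65.0 and 28.6 CPM to 578 and 221 CPM. The log2 fold change was 3.10 ± 0.66 (edgeR adjusted p = 0.0161, among 8.91% of genes called up). It stood at 1.97 ± 0.63 on agar, where it was called with the block (among 9.96% of genes called up) and by DESeq2. Between the DTT cultures, solid minus liquid, it stood at -1.49 ± 0.62, called with the block (edgeR adjusted p = 0.0479, among 3.64% of genes called lower). Its liquid call was lost without liquid control replicate 2 (log2 fold change 2.64) or liquid DTT replicate 1 (2.24). On the other side, AO090023000646 stood at 1.70 ± 0.68 on agar and 1.36 ± 0.66 in liquid and AO090023000645 at 0.77 ± 0.62 and 1.08 ± 0.62, and neither was called by edgeR, although AO090023000645 was in liquid with the block. AO090023000649 stood at -1.28 ± 0.48, called with the block alone of the settings that kept all libraries, and at -0.36 ± 0.48. Between the control cultures, solid minus liquid, AO090023000649 stood at 1.62 ± 0.49. There it was called with the block (edgeR adjusted p = 0.0362, among 385 of 9438 genes called higher). Strand is not mentioned in the labels, and where neighbours overlap their reads could not be separated.

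Beside ams1, 0 of the 4 nearest genes were called in liquid under DTT by edgeR, with or without the block. Of all tested genes, 20% were called there without the block, and 14.2% up and 17.4% down with it. AO090005001459 stood at -0.61 ± 0.64 on agar and -0.23 ± 0.64 in liquid, and AO090005001460 at -0.42 ± 0.39 and -0.05 ± 0.39. AO090005001457 stood at 1.78 and 8.11 CPM in liquid control and at 0.226 and 3.38 CPM in liquid DTT, lower within each replicate number though the groups overlapped. Its log2 fold changes were 0.36 ± 0.91 on agar and -1.36 ± 0.97 in liquid. AO090005001456 rose on agar, from 30.3 and 23.7 CPM to 97.1 and 120 CPM (2.01 ± 0.47, edgeR adjusted p = 0.0345, among 4.86% of genes called up). This call was lost without any 1 of the 4 solid libraries (log2 fold changes of 1.86 to 2.18). In liquid AO090005001456 stood at 0.62 ± 0.45 under DTT, with 92.4 and 118 CPM in the controls. Between the control cultures, solid minus liquid, it stood at -1.97 ± 0.47, called with the block (edgeR adjusted p = 0.0252, among 4.09% of genes called lower).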

How the data were processed

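Polyadenylated RNA of 8 libraries was read as 44 bp from both fragment ends, per the labels' protocols. Per the file headers, the deposited files list mapped reads per gene, taken as raw counts, and the covered fraction of each gene. The sources used here do not give the aligner, genome build or annotation. All 11880 locus tags matched the RefSeq table of assembly ASM18445v3, which gives symbols to 714 of 12347 genes and was used for names and gene order only. Coding lengths are the smallest denominators common to a gene's deposited fractions, and 99.8% of 11038 were multiples of 3.

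The test was edgeR 4.0.16 (R 4.3.3): filterByExpr (minimum count 10, leaving 9438 genes), TMM scaling (factors 0.73 to 1.25), then glmQLFit and glmQLFTest over all 8 libraries with 1 coefficient per condition (4 residual degrees of freedom). P-values were Benjamini-Hochberg adjusted over all genes of a contrast and called under 0.05. SE was taken as log2 fold change over the square root of F, and 95% intervals from it with the residual degrees of freedom. A prior count of 2 went into log2 CPM. Simulated counts with known changes, drawn from the fit's own spread and with no insert size effect, were used to check the code only. DESeq2 1.42.0 was an alternative.

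Replicate numbers coincide with insert size. Differences between replicates correlated between conditions at 0.24 to 0.51, so the fit with this block (3 residual degrees of freedom) is printed where it changed a call. Replicates were not 1 library deposited again: chi-square over genes, per degree of freedom, was 161.2 to 241.3 within conditions. The genes, lists and tests were chosen with earlier results of these data known. Genes named are atg1, ams1, all tested genes of the lists, the 5 most correlated genes and the 3 with a symbol, 2 neighbours on either side and bipA, pdiA, clxA and hacA as the check of the treatment. The 12 genes described as added were taken from the symbol table later. Sequences are not printed.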

Additional observations from a re-analysis of the deposited data

How the results depend on the processing

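No direction of atg1 or ams1 reversed under any of the 13 alternatives. Of 185 values of other named genes 29 gained or lost a call. Among these other genes a reversal was counted only for values called with or without the alternative, and 0 reversed so. Values that were not called did change sign. That of tor under DTT in liquid was 0.31 with all libraries and -0.48 without liquid DTT replicate 2. Calls rested on few libraries, and the cause of lost or gained calls was not tested. In the order solid DTT effect, liquid DTT effect, solid minus liquid without DTT, solid minus liquid with DTT and difference of DTT effects, edgeR called 878, 1885, 367, 278 and 0 genes. With the replicate block (insert size) the counts were 1897, 2984, 771, 992 and 23, and they held all 878 genes called without it for DTT on agar and all 367 and 278 called between cultures. DESeq2 called 1672, 2593, 890, 1142 and 211 genes. With no filter on low counts the last 3 contrasts gave 569, 610 and 26 genes. Of the calls under DTT between cultures 79.9% were higher on agar, against 65.3% with the block, 68.2% with no filter and 58.5% by DESeq2. Of the 13 other listed genes 0, 4, 1, 0 and 0 were called. With the block 2 were called for DTT on agar, 2 between the control cultures and 1 between the DTT cultures, and by DESeq2 1, 2, 1 and 1 in all but the liquid DTT contrast. Leaving out 1 library at a time gave 6 to 1207, 614 to 1581, 67 to 437, 60 to 322 and 0 to 7 genes, and 0 to 1, 1 to 3 and 0 to 1 of the listed genes in the first 3 contrasts. The library left alone in its condition was then assumed to vary like the others. Under these omissions the log2 fold change of ams1 under DTT in liquid ran from -4.54 to -2.33. Of the 13 alternatives atg1 was called in 9 on agar and 11 in liquid under DTT, and ams1 in 0 and 11. Without the rRNA genes library sizes were smaller, and mean CPM were 36.3, 249, 143 and 694 for atg1 in solid control, solid DTT, liquid control and liquid DTT, and 48.2 and 41.8 for ams1 in the solid and liquid controls. Of the 5 genes most like atg1, 2 remained by Spearman correlation (where 15 genes tied at the top) and 2 with replicate means removed as a block. For ams1 0 and 3 remained. The 6 reads of ams1 in liquid DTT replicate 1 limit its values there.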

Other observations

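Of the genes added after the symbols had been read, atgI (AO090009000183), which the list rule for autophagy symbols did not take in and to which no role is assigned here, had the pattern nearest to atg1, with a correlation of 0.924 over the 8 libraries. It stood at 71.4 and 76.5 CPM in solid control, 119 and 136 CPM in solid DTT, 69.8 and 117 CPM in liquid control and 192 and 225 CPM in liquid DTT. The DTT libraries lay above the controls in both cultures, as did those of 29.7% of tested genes on agar and 28.2% in liquid. Its log2 fold change under DTT was 0.78 ± 0.42 on agar (edgeR quasi-likelihood, Benjamini-Hochberg adjusted p = 0.255) and 1.16 ± 0.42 in liquid (adjusted p = 0.0804, and 0.0272 with insert size as a block, edgeR), where DESeq2 also called it.

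Of the other genes of the treatment check, pdiA (AO090001000733), a disulfide isomerase gene, rose by 2.56 ± 0.66 on the log2 scale under DTT in liquid culture and clxA (AO090009000313), the calnexin gene, by 2.62 ± 0.73. Leaving out 1 library at a time, the call of pdiA was lost in 5 of 8 fits and that of clxA in 7 of 8, with clxA at 1.78 without liquid DTT replicate 2. On agar pdiA stood at 2.17 ± 0.65 and clxA at 2.48 ± 0.73, called by DESeq2 and with the block but not by the edgeR fit without it (Benjamini-Hochberg adjusted p = 0.0682 and 0.0656). The values of hacA were 0.76 ± 0.48 on agar and 0.65 ± 0.48 in liquid, not called with or without the block. The correlation of atg1 over the 8 libraries was 0.704 with bipA, 0.655 with pdiA, 0.67 with clxA and 0.654 with hacA (AO090124000074), the regulator of the unfolded protein response.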
